A study of Ovis aries with 2 samples.

Results

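The genes described here are 9 cell adhesion and synapse organiser genes of the sheep cerebral cortex: the neurexin NRXN3, the neuroligin NLGN1, and CNTNAP2, CADM2, NEGR1, PTPRD, TENM2, ADGRB3 and LRP1B. They were chosen by symbol from a list fixed with earlier results of these data known. All 9 were found among the 13765 features of the deposited matrices. The study compared 2 libraries of single-nucleus RNA, in which the RNA of each nucleus is captured in a droplet and counted by unique molecular identifiers (UMIs), from cortex of a wildtype adult female Rambouillet sheep with no treatment in life. In the pre-processed library nuclei were isolated straight from dissected cortex, and in the post-processed library debris and red blood cells were removed first. The growth label gives an age of 18 to 36 months, the series description speaks of a single animal, and both libraries carry the same batch label. The titles and the series description agree on which library is which, but the treatment label of the second library also says that no debris or red cells were removed; libraries are therefore named here by their titles. The stated purpose was to see how tissue processing affects the cell types recovered, and for these genes the questions are which nuclei held their transcripts and which of them stayed after processing.

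Neurexins sit on the presynaptic membrane and bind neuroligins across the synaptic cleft, and receptor phosphatases, teneurins and adhesion G protein-coupled receptors form parallel bridges between the sides of a synapse. Immunoglobulin-type adhesion proteins such as CADM2 and NEGR1 line neurites and cell contacts, and contactin-associated proteins hold axon and glial membranes together around the nodes of Ranvier. Genes of this kind are among the longest in mammalian genomes, with very large introns, and are known for abundant unspliced RNA in nuclei, in neurons and also in glia. Counts depend on gene length, no length was usable here, and whether intronic reads and strand entered the counting is not given in the sources used here. Levels are therefore compared between classes of nuclei and between libraries for 1 gene at a time, and not between genes.

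The pre-processed library held 2125 barcodes and 9580441 UMIs, with a median of 2524 UMIs per barcode. The post-processed library held 905 barcodes and 794203 UMIs, of which the 494 barcodes with at least 100 detected genes (median 667.5 UMIs) were used as nuclei. The shallowest deposited barcode had 904 UMIs in the pre-processed and 44 UMIs in the post-processed library. The 2 matrices thus reach down to different depths, a limit on every comparison of numbers of nuclei and of depth between them. The series description states about 5000 nuclei per condition, and no barcode sequence occurred in both libraries. Nuclei of both libraries were clustered together with the 9 genes and their relatives left out of the clustering genes, and clusters were named from marker lists. Neuron-like nuclei numbered 942 before and 0 after processing, where 3 nuclei, taken as the limit for a count of 0, would be 0.607% of the 494. Oligodendrocyte precursor-like nuclei, the dividing cells that give rise to myelinating oligodendrocytes, numbered 109 before and 0 after. Oligodendrocyte-like nuclei numbered 180 before and 57 after, and microglia-like nuclei, those of the resident immune cells, 86 before and 179 after. A cluster of 355 nuclei before and 2 after was high in GJA1, a gap junction gene of astrocytes, and SLC4A4, a bicarbonate transporter. It is called GJA1/SLC4A4-high and given no cell type name, because only 2 of the 11 astrocyte markers were listed. With 1 library per condition there is no test of any difference. All intervals are exact 95% intervals that cover counting error only, and levels are CPM, counts per 1000000 UMIs of the class or library.

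Across all nuclei, every one of the 9 genes was lower in the post-processed library, and the size of the difference varied widely among them. Their sum was 796154 UMIs, 8.31% of the pre-processed library, against 5946 UMIs, 0.777% of the post-processed one. All 9 were at least 2-fold lower, where 24.1% of the 8344 genes with at least 10 UMIs were at least 2-fold lower and 32% at least 2-fold higher. Because the genes were chosen with earlier results of these data known, this count is a description only. The median log2 ratio of post-processed over pre-processed level was -5.05 for the 9 genes and 0.37 for all genes tested.

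PTPRD, a presynaptic receptor protein phosphatase, had the smallest difference, at 15226 CPM in the pre-processed and 3935 CPM in the post-processed library, which is -1.95 on the log2 scale (-2.00 to -1.90). NRXN3 followed, at 11841 CPM and 2397 CPM, or -2.30 (-2.37 to -2.24). These 2 genes stood apart from the other 7, whose log2 ratios lay between -4.66 and -6.17. NEGR1, an immunoglobulin-type adhesion protein anchored in the membrane by a lipid, was at 7765 and 306 CPM, or -4.66 in log2. CADM2, a synaptic cell adhesion molecule, was at 12982 and 427 CPM (log2 -4.92). LRP1B, a large member of the low-density lipoprotein receptor family, was at 6117 and 184 CPM (log2 -5.05). No interval of these 3 genes reached those of PTPRD or NRXN3.

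CNTNAP2, which encodes the contactin-associated protein Caspr2, was at 7931 and 176 CPM, or -5.49 in log2 (-5.74 to -5.25). TENM2, a teneurin that binds latrophilins across the synapse, had a ratio that was equal within counting error, from 5788 and 128 CPM (-5.80 to -5.21). ADGRB3, an adhesion G protein-coupled receptor of synapses that binds C1q-like proteins, was at 8821 and 125 CPM, 69.9-fold lower. NLGN1, the postsynaptic neuroligin of excitatory synapses, was at 6632 and 91.5 CPM, 72.0-fold lower and the lowest ratio of the 9. Genes known mainly from neurons served as a yardstick, and all 7 of them that were listed were at least 2-fold lower. SYT1, the calcium sensor of transmitter release, went from 7338 to 51.0 CPM (log2 ratio -7.15), and KCNIP4, a potassium channel subunit, from 15968 to 60.1 CPM (-8.04). All 9 adhesion genes thus had a smaller difference than either of these 2 neuronal genes. In sums over all nuclei, a loss of nuclei of a class and a lower level per nucleus cannot be told apart, so the classes were examined next.

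In the pre-processed library, most transcripts of these genes lay in neuron-like nuclei, which held 80.3% of their UMIs and 70.2% of all UMIs. By gene, the neuron-like share ran from 73.2% for CADM2 and 73.4% for LRP1B to 85.4% for CNTNAP2 and 87.1% for TENM2. GJA1/SLC4A4-high nuclei held 6.51% of the UMIs of the 9 genes, but 16.5% of those of CADM2, 11.3% of ADGRB3 and 10.7% of LRP1B, beside 10.9% of all UMIs. Oligodendrocyte-like nuclei held 0.814% and microglia-like nuclei 0.245%. Clusters 1 (377 nuclei) and 10 (67 nuclei) stayed unnamed. The leading genes of the first mixed S100B, MLC1 and PTGDS, known from glia, with the neurofilament genes NEFL and NEFM, and those of the second held the precursor marker MEGF11. Cluster 10 was closest to the excitatory list, with 4 of 4 markers raised and 12959 CPM of neuron markers against 1625 CPM of precursor markers. Clusters 1 and 10 held 5.62% and 4.83% of the UMIs of the 9 genes.

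After processing, the 9 genes in sum lay mainly in 2 glial classes. Oligodendrocyte-like nuclei held 41.8% of the UMIs of the 9 genes but only 18.2% of all UMIs, and microglia-like nuclei 48.5% of them and 64.6% of all UMIs. The line between these 2 classes moved the shares: at the finer clustering resolution of 1.0 they were 79.1% and 11.2%. These sums rest largely on PTPRD and NRXN3, with 3011 and 1834 of 5946 UMIs. By gene, the oligodendrocyte-like share ran from 7.14% for TENM2 and 7.80% for LRP1B to 44.8% for NRXN3 and 46.0% for PTPRD. The microglia-like share ran from 33.7% for TENM2 to 73.0% for LRP1B. Most of the 98 TENM2 UMIs thus lay outside both classes. As a share of all UMIs of a class, the 9 genes made up 9.50% in neuron-like, 4.94% in GJA1/SLC4A4-high and 4.68% in oligodendrocyte precursor-like nuclei before processing. The share in oligodendrocyte-like nuclei was 2.16% before and 1.79% after, and in microglia-like nuclei 1.43% before and 0.584% after. The remaining post-processed nuclei were clusters 5 and 13 and 2 GJA1/SLC4A4-high nuclei. Cluster 5, of 227 shallow nuclei with 231 UMIs in the median, held 6.22% of the UMIs of the 9 genes. All 9 listed microglial markers were raised in it, with a sum of 9981 CPM beside 10680.1 CPM in post-processed microglia-like nuclei. It stayed unnamed for its low depth. Cluster 13, of 29 nuclei with endothelial markers, held 0.959%. The 2 GJA1/SLC4A4-high nuclei held the rest, which was more than cluster 13 held.

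**Figure D1:**
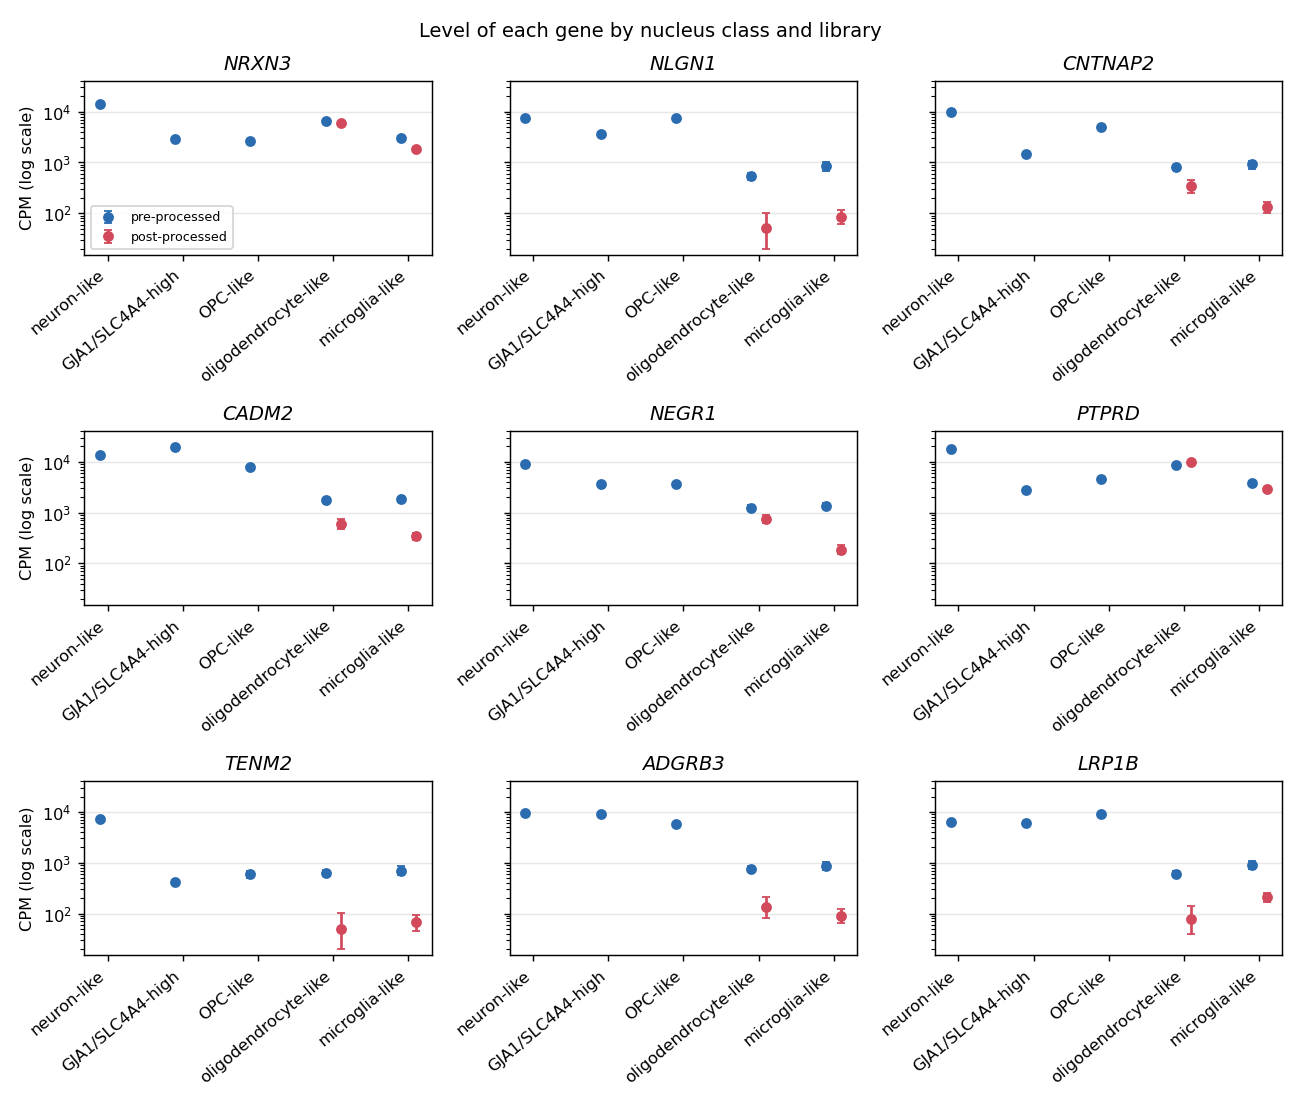
Level of each gene in CPM (log axis) in 5 classes of nuclei of the pre-processed (blue) and post-processed (red) library, with exact 95% Poisson intervals; OPC stands for oligodendrocyte precursor, and classes under 5 nuclei are not drawn. For NRXN3 and PTPRD the red points in oligodendrocyte-like nuclei lie close to the blue ones, at 5898 and 9949 CPM, while for NLGN1 and TENM2 both red points lie under 100 CPM.

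Among the presynaptic genes, NRXN3 was highest in neuron-like nuclei of the pre-processed library at 13983 CPM, followed by oligodendrocyte-like nuclei at 6499 CPM (6214 to 6794). Microglia-like nuclei had 2973 CPM, GJA1/SLC4A4-high nuclei 2887 CPM and oligodendrocyte precursor-like nuclei 2649 CPM. Intervals of neighbours among these last 3 classes overlapped. PTPRD had the same top of the order, with 18080 CPM (17978 to 18182) in neuron-like and 8724 CPM (8393 to 9065) in oligodendrocyte-like nuclei. It was lower in oligodendrocyte precursor-like nuclei at 4485 CPM, in microglia-like nuclei at 3893 CPM and in GJA1/SLC4A4-high nuclei at 2721 CPM, with no overlap between neighbours. So mature oligodendrocyte-like nuclei ranked second for both genes, above their precursor class.

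CNTNAP2 differed from these. It was highest in neuron-like nuclei at 9648 CPM, and the second class was oligodendrocyte precursor-like nuclei at 5041 CPM (4785 to 5308). GJA1/SLC4A4-high nuclei had 1468 CPM, and microglia-like and oligodendrocyte-like nuclei had 913 and 797 CPM with overlapping intervals.

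NLGN1, the postsynaptic partner, was as high in oligodendrocyte precursor-like nuclei, at 7558 CPM (7244 to 7883), as in neuron-like nuclei, at 7478 CPM (7413 to 7544), within counting error. GJA1/SLC4A4-high nuclei had 3668 CPM, microglia-like nuclei 840 CPM and oligodendrocyte-like nuclei 540 CPM. The precursor and the mature oligodendrocyte class thus lay at opposite ends of the order for this gene. TENM2 was at 7176 CPM in neuron-like nuclei and between 421 CPM (GJA1/SLC4A4-high) and 701 CPM (microglia-like) in the other 4 classes. ADGRB3 was high in 2 classes, with 9550.0 CPM (9476 to 9624) in neuron-like and 9089.7 CPM (8908 to 9274) in GJA1/SLC4A4-high nuclei. Oligodendrocyte precursor-like nuclei had 5792 CPM of ADGRB3, and microglia-like and oligodendrocyte-like nuclei 862 and 764 CPM, which overlapped.

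The immunoglobulin-type genes split. CADM2 was higher in GJA1/SLC4A4-high nuclei, at 19523 CPM (19257 to 19793), than in neuron-like nuclei, at 13523 CPM (13435 to 13611). Oligodendrocyte precursor-like nuclei had 7871 CPM of CADM2, and microglia-like and oligodendrocyte-like nuclei had 1811 and 1798 CPM, which overlapped. NEGR1 was highest in neuron-like nuclei at 9153 CPM, with GJA1/SLC4A4-high and oligodendrocyte precursor-like nuclei level at 3627 and 3623 CPM. LRP1B was highest in oligodendrocyte precursor-like nuclei at 9172 CPM (8825 to 9528), above neuron-like nuclei at 6389 CPM and GJA1/SLC4A4-high nuclei at 6005 CPM. Its microglia-like and oligodendrocyte-like levels were 906 and 604 CPM. Neuron-like nuclei were therefore not the highest class for CADM2 and LRP1B, and were level with the precursor class for NLGN1.

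Free RNA of broken cells can be captured with any nucleus, so that neuronal transcripts are also counted in droplets of glial nuclei. The yardstick was the percent of the neuron-like level that the 7 neuronal genes reached in each glial class of the pre-processed library. It ran from 4.52% to 48.6% in GJA1/SLC4A4-high nuclei, with a median of 8.05%, and from 9.35% to 33.7% in oligodendrocyte precursor-like nuclei, with a median of 15.6%. In oligodendrocyte-like nuclei it ran from 5.20% to 47.6% (median 7.68%), and in microglia-like nuclei from 7.85% to 71.3% (median 13.1%). CAMK2A, a kinase of excitatory synapses, set the upper end in each of the 4 classes. Without it, a choice made after the data were seen, the upper ends were 13.9%, 21.0%, 11.97% and 27.6%. The last 2 rest on few counts. They were set by STMN2 with 8 UMIs in oligodendrocyte-like nuclei (5.16% to 23.6%) and GRIN1 with 15 in microglia-like nuclei (15.4% to 45.6%).

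In GJA1/SLC4A4-high nuclei, 4 of the 9 genes lay above this range: CADM2 at 144% (142 to 147), ADGRB3 at 95.2% (93.1 to 97.3), LRP1B at 94.0% (91.5 to 96.5) and NLGN1 at 49.1% (47.5 to 50.7). Of all 7750 genes tested, 79.5% lay above it, so the count for the 9 genes was below the background share. NLGN1 passed the limit by less than its interval. TENM2, at 5.86%, lay below the median of the neuronal genes. In oligodendrocyte precursor-like nuclei 6 of 9 lay above: LRP1B at 144%, NLGN1 at 101%, ADGRB3 at 60.7%, CADM2 at 58.2%, CNTNAP2 at 52.3% and NEGR1 at 39.6%, where the background was 81.9%. PTPRD (24.8%), NRXN3 (18.9%) and TENM2 (8.28%) lay within or below the range there.

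In oligodendrocyte-like nuclei only PTPRD lay above the range, at 48.3% (46.4 to 50.2), with a background of 67.7%. NRXN3 was close to it at 46.5% (44.4 to 48.6), and the interval of the CAMK2A value, 40.9% to 55.1%, covered both genes; at resolution 1.0 and with classes taken from marker UMIs the count was 0. NEGR1 at 13.7% and CADM2 at 13.3% came next, and the other 5 lay between 7.23% and 9.45%, near the neuronal median. In microglia-like nuclei 0 of 9 lay above the range, with a background of 64.4%, and their values ran from 9.02% for ADGRB3 to 21.5% for PTPRD. With CAMK2A left out of the range the counts were 8, 7, 4 and 0 of 9 in the order of classes above, and the backgrounds 91.1%, 85.5%, 80.7% and 75.1%. In oligodendrocyte-like nuclei the interval of STMN2, which set that limit, covered NEGR1 and CADM2.

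**Figure D2:**
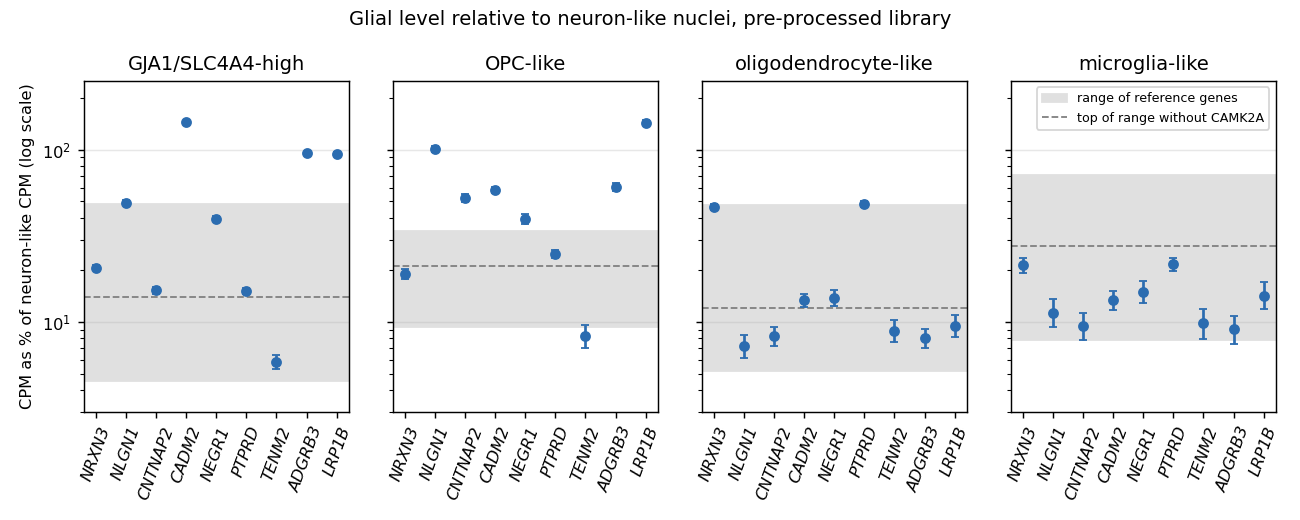
Level of each gene in 4 classes of the pre-processed library as a percent of its neuron-like level (log axis), with 95% intervals; the grey band spans the 7 neuronal reference genes and the dashed line is its upper end without CAMK2A. CADM2 at 144% in GJA1/SLC4A4-high and LRP1B at 144% in oligodendrocyte precursor-like (OPC-like) nuclei stand highest, and all 9 points lie inside the band in microglia-like nuclei.

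The share of nuclei with a UMI of each gene was compared at equal depth. With each nucleus thinned to 200 UMIs, SYT1 was detected in 80.4% of neuron-like, 11.0% of GJA1/SLC4A4-high, 21.1% of oligodendrocyte precursor-like, 11.7% of oligodendrocyte-like and 22.1% of microglia-like nuclei, whose unthinned median depths were 5453.5, 2611, 2001, 1490.5 and 1294.5 UMIs. PTPRD was detected in 83.9% (77.7 to 88.9) of the thinned oligodendrocyte-like nuclei and in 100% of them unthinned, and NRXN3 in 67.8% (60.4 to 74.5) and 97.2%. In the same nuclei NLGN1 and ADGRB3 were both detected in 12.2% after thinning, TENM2 in 11.1% and LRP1B in 10.6%, all inside the interval of the SYT1 share (7.37 to 17.3). CADM2 was detected in 94.9% (92.1 to 97.0) of thinned GJA1/SLC4A4-high nuclei, ADGRB3 in 77.2% and LRP1B in 62.0%, while TENM2 was at 8.73%. LRP1B (82.6%) and NLGN1 (78.0%) were detected in most thinned oligodendrocyte precursor-like nuclei. The mean number of the 9 genes detected per thinned nucleus was 6.81 in neuron-like, 5.01 in oligodendrocyte precursor-like, 4.38 in GJA1/SLC4A4-high, 2.64 in oligodendrocyte-like and 1.88 in microglia-like nuclei.

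The 6 neuron-like clusters, all from the pre-processed library, did not share 1 pattern. Clusters 7 and 9 (125 and 90 nuclei) were closest to the inhibitory marker list, and the leading genes of cluster 9 include SST and LHX6, those of cluster 7 RELN. The other 4 clusters (0, 6, 11 and 12; 727 nuclei) were closest to the excitatory list, except cluster 11, which was closest to the general neuron list. CNTNAP2 was at 21431 CPM in the 2 inhibitory clusters together and 7093 CPM in the other 4, 3.02-fold higher. NRXN3 was at 21452 and 12364 CPM, 1.74-fold higher in the inhibitory clusters. PTPRD went the other way, with 3713 CPM in the inhibitory and 21195 CPM in the other clusters, 5.71-fold lower.

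The other genes differed less than CNTNAP2 and PTPRD. NLGN1, 1.79-fold lower in the inhibitory clusters, differed about as much as NRXN3. The log2 ratio of inhibitory over other clusters was -0.84 for NLGN1, -0.64 for NEGR1, -0.51 for ADGRB3, -0.42 for CADM2, -0.09 for TENM2 and 0.16 for LRP1B. At least 2-fold higher in the inhibitory clusters was 1 of 9 genes, with a background of 10.1%, and at least 2-fold lower 1 of 9, with a background of 11.2%. For NRXN3, CNTNAP2, NLGN1, ADGRB3 and PTPRD the inhibitory clusters lay wholly on 1 side of the other 4. CNTNAP2 had 21108 and 21800.2 CPM in clusters 7 and 9 and at most 8796 CPM in the others, and PTPRD had 4071 and 3304 CPM there and at least 16949 CPM in the others. The PTPRD level of oligodendrocyte-like nuclei, 8724 CPM, thus lay above both inhibitory clusters.

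Other differences followed single clusters. Cluster 12 (44 nuclei) had the highest NLGN1, 15093 CPM against 3681 CPM in cluster 9, and the highest TENM2, 12072 CPM against 4482 CPM in cluster 11. Cluster 11 (47 nuclei) had the highest NEGR1, 14306 CPM against 4771 CPM in cluster 7, and the highest LRP1B, 9024 CPM against 3126 CPM in cluster 12. CADM2 and ADGRB3 varied least among the neuron-like clusters, by 1.89-fold and 1.80-fold between lowest and highest. PTPRD varied most, by 7.08-fold.

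**Figure D3:**
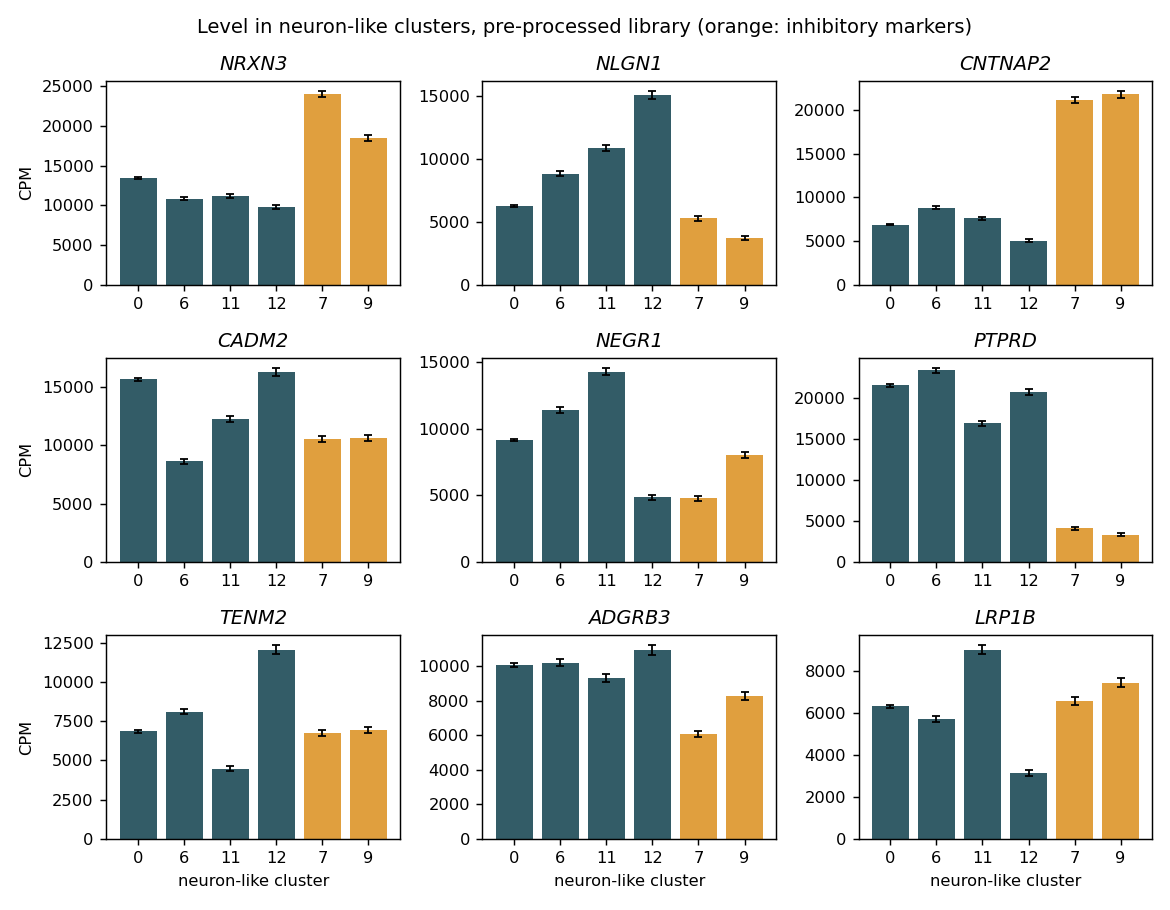
Level of each gene in CPM (linear axes from 0, scaled per gene) in the 6 neuron-like clusters of the pre-processed library, with exact 95% Poisson intervals; orange bars are the clusters closest to inhibitory markers. CNTNAP2 is tallest in clusters 7 and 9, at 21108 and 21800.2 CPM, where PTPRD is lowest.

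Within oligodendrocyte-like nuclei as clustered, PTPRD and NRXN3 were near their earlier level after processing, whereas 6 of the other 7 genes were at least 2-fold lower. PTPRD was at 8724 CPM before and 9949 CPM (9432 to 10487) after, so that the log2 ratio was 0.19 (0.09 to 0.28), and -0.024 with classes taken from marker UMIs per nucleus. NRXN3 was at 6499 CPM before and 5898 CPM (5501 to 6315) after, with a log2 ratio of -0.14 (-0.26 to -0.02). For NRXN3 the ratio was -0.31 at resolution 1.0 and -0.64 (-0.73 to -0.55) with classes taken from marker UMIs, and all 7 other genes were at least 2-fold lower under both. NEGR1 came next, with 1258 and 747 CPM (-0.75). CNTNAP2 was at 797 and 345 CPM (-1.20), and CADM2 at 1798 and 596 CPM (-1.59).

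The other 4 had few UMIs in the post-processed oligodendrocyte-like nuclei. ADGRB3 had 19 UMIs there (136 CPM, log2 ratio -2.45), LRP1B 11 UMIs (79.0 CPM, -2.87), and NLGN1 and TENM2 7 UMIs each (50.3 CPM, -3.33 and -3.56). Among 4124 genes tested in this class 17.2% were at least 2-fold lower and 7.15% at least 2-fold higher, against 6 and 0 of the 9, and the median log2 ratio was -0.10 over all genes and -1.59 for the 9. The neuronal yardstick moved in the same comparison. All 6 neuronal reference genes tested were at least 2-fold lower, with SYT1 at 677 CPM before and 101 CPM after and KCNIP4 at 1335 and 28.7 CPM. The summed level of the 9 genes was 7.60 times that of the 7 neuronal genes in oligodendrocyte-like nuclei before and 124 times after, beside 2.84 times in neuron-like nuclei. The value after processing rests on only 20 UMIs of the 7 neuronal genes. Of the 2485 UMIs of the 9 genes there, 1385 were PTPRD and 821 NRXN3.

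Markers of other cell types in these nuclei also differed between the libraries. Of 15 neuron markers, 12 had a UMI before, with a sum of 2035 CPM, and 5 after, with a sum of 316 CPM. Microglial markers were found for 6 of 9 before (70.1 CPM) and 8 of 9 after (259 CPM), and oligodendrocyte markers for 4 of 4 in both (5034 and 5934 CPM). Both astrocyte markers were found before (194 CPM) and neither after (GJA1 and SLC4A4 at 0). Endothelial markers were found for 5 of 6 in both (183 and 424 CPM), and fibroblast markers for 3 of 5 before (76.7 CPM) and 2 of 5 after (273 CPM). Precursor markers summed to 1858 and 1623 CPM. In the 38 of 57 post-processed oligodendrocyte-like nuclei without any microglial marker UMI, PTPRD was at 10070.2 CPM and NRXN3 at 5491 CPM. The part of the RNA of other cell types in these differences was not tested. After thinning, PTPRD was detected in 77.2% (64.2 to 87.3) of post-processed oligodendrocyte-like nuclei and NRXN3 in 61.4% (47.6 to 74.0), intervals that overlap those before processing. SYT1 was detected in 1.75% of them.

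Within all microglia-like nuclei the same 2 genes were least different, an order not seen in the few counts of those without an oligodendrocyte marker UMI. PTPRD was at 3893 CPM before and 2923 CPM after, with a log2 ratio of -0.41 (-0.56 to -0.27), and NRXN3 at 2973 and 1808 CPM, -0.72 (-0.89 to -0.54). The other 7 genes were at least 2-fold lower, where 16.3% of 5097 genes were and 11.8% were at least 2-fold higher, with log2 ratios within microglia-like nuclei from -2.12 for LRP1B (906 and 209 CPM) to -3.38 for TENM2 (701 and 66.8 CPM). All 5 neuronal reference genes tested were at least 2-fold lower, and SYT1 went from 1191 to 46.6 CPM. The summed log2 ratio of the 9 genes, -1.29, became -4.19 in nuclei with no oligodendrocyte marker UMI. There PTPRD was at -4.13 and NRXN3 at -3.73, beside -2.39 for LRP1B, -3.14 for CNTNAP2 and -3.55 for ADGRB3. These ratios rest on 57 UMIs of all 9 genes in 81 post-processed nuclei and 408 in 32 pre-processed ones, so their order is uncertain. With classes taken from marker UMIs PTPRD was at -1.82 and NRXN3 at -1.71.

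**Figure D4:**
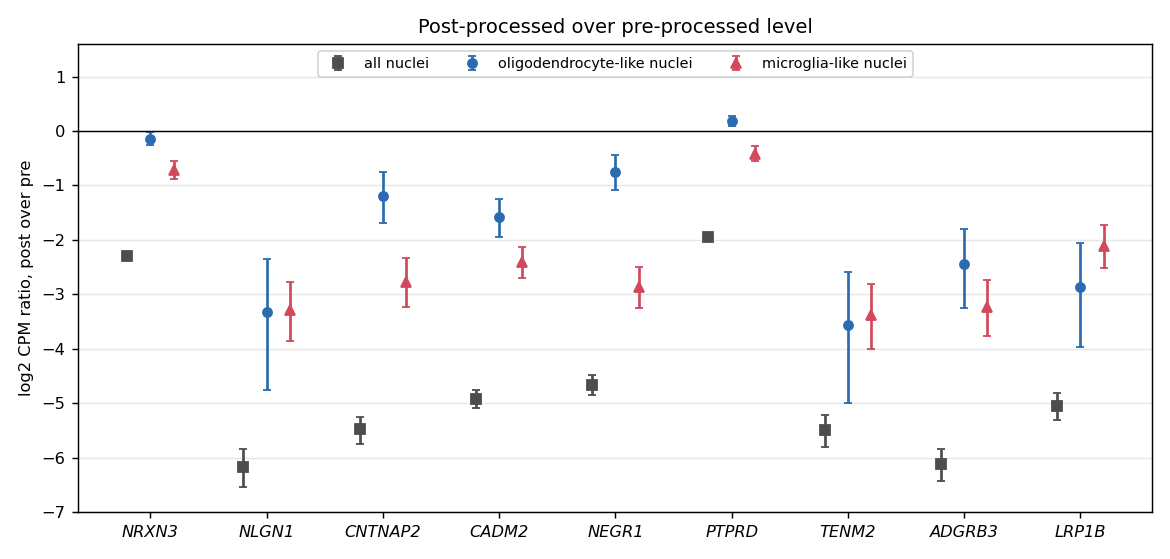
Log2 ratio of post-processed over pre-processed level for each gene, over all nuclei (grey squares), oligodendrocyte-like nuclei (blue circles) and microglia-like nuclei (red triangles), with 95% intervals; the line at 0 marks equal levels. PTPRD in oligodendrocyte-like nuclei, at 0.19, is the 1 point above the line, and every grey square lies at -1.95 or below.

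The PTPRD and NRXN3 counts of microglia-like nuclei went together with oligodendrocyte markers, as did those of the 9 genes in sum. All 4 oligodendrocyte markers listed were found in microglia-like nuclei, with a sum of 1841 CPM before and 2148 CPM after, beside 10802 and 10680.1 CPM of the 9 microglial markers. The post-processed microglia-like nuclei with at least 1 oligodendrocyte marker UMI numbered 98, with a median of 2680 UMIs, and held 1434 of 1444 PTPRD UMIs and 880 of 893 NRXN3 UMIs. Their levels were 3625 CPM (3439 to 3817) of PTPRD and 2224 CPM (2080 to 2376) of NRXN3. The other 81 nuclei, with a median of 991 UMIs, had 102 CPM (48.8 to 187) of PTPRD and 132 CPM (70.4 to 226) of NRXN3. Of the 2886 UMIs of all 9 genes in this class, 2829 lay in the 98 nuclei, which held 395638 of its 494002 UMIs. The summed levels were 7150 CPM with and 579 CPM without a marker UMI.

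Thinned to equal depth, PTPRD was detected in 31.6% (22.6 to 41.8) of the first and 3.70% (0.770 to 10.4) of the second, and NRXN3 in 26.5% and 3.70%. Of 42 microglia-like UMIs of NLGN1, 0 lay in the 81 nuclei, with an upper bound of 37.5 CPM. CADM2 had 2 of its 168 UMIs there (20.3 CPM). In the pre-processed library PTPRD was at 4682 CPM in the 54 microglia-like nuclei with an oligodendrocyte marker UMI and 1857 CPM in the 32 without, and NRXN3 at 3425 and 1805 CPM. SYT1 was at 1074 and 1491 CPM in the same nuclei, from 163 UMIs in both groups together. The source of these counts was not tested.

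Ordered by the summed oligodendrocyte markers, the groups of post-processed nuclei had the same order for both genes. Oligodendrocyte-like nuclei (5934 CPM of markers) had 9949 CPM of PTPRD, microglia-like nuclei with a marker UMI (2682 CPM) 3625 CPM, cluster 5 (1764 CPM) 2295 CPM, cluster 13 (261 CPM) 261 CPM and microglia-like nuclei without a marker UMI 102 CPM. For NRXN3 the levels were 5898, 2224, 1463, 241 and 132 CPM in that order. LRP1B did not follow it, with 79.0, 230.0, 172, 60.3 and 122 CPM. Whether these are nuclei captured together, free RNA or transcripts of the nuclei themselves was not tested. No doublet caller was run.

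**Figure D5:**
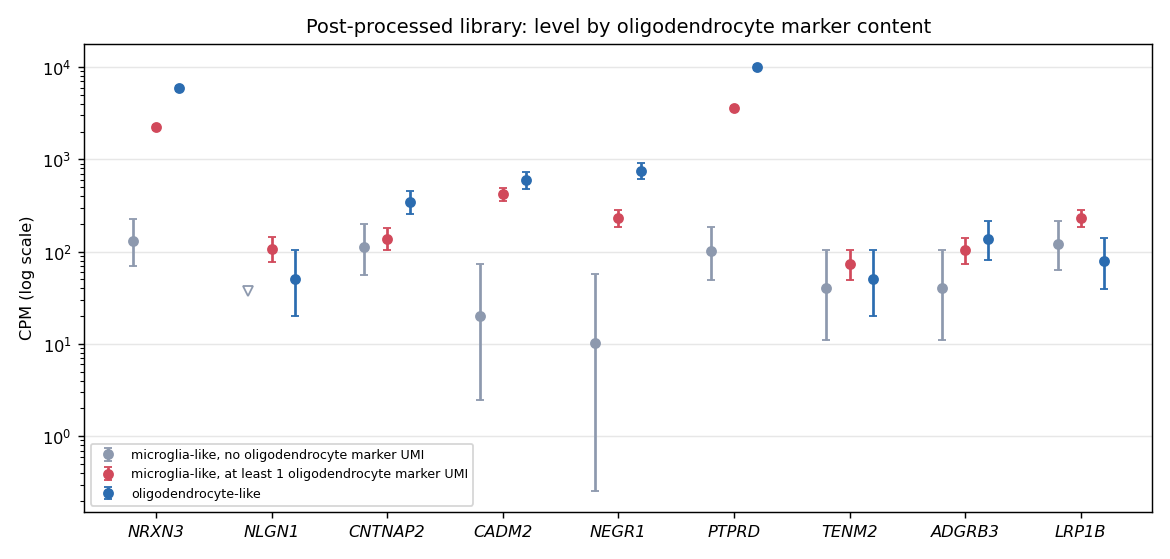
Level of each gene in CPM (log axis) in post-processed oligodendrocyte-like nuclei (blue) and in microglia-like nuclei with (red) and without (grey) an oligodendrocyte marker UMI, with exact 95% Poisson intervals; the open triangle is the upper bound for NLGN1, which had 0 UMIs. PTPRD and NRXN3 lie at 3625 and 2224 CPM in the red group and at 102 and 132 CPM in the grey one.

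The wider families of these genes were read from a list of 89 relatives, of which 32 were listed and 30 had at least 10 UMIs. At least 2-fold lower over all nuclei were 21 of the 30, 2 were at least 2-fold higher and 7 lay between, with a median log2 ratio of -2.07, beside 24.1% lower and 32% higher among all genes tested. Both LRRTM4 and SLITRK3 had no UMI after processing, with 974 and 747 before. The upper ends of the intervals of their log2 ratios were -4.40 and -4.01.

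Among relatives with at least 50 UMIs in the 2 libraries together, the highest ratios were those of IL1RAP at 1.47, MAGI2 at 0.76, LRRTM2 at 0.21, DLG1 at 0.05 and MAGI3 at -0.36. LRP2 (10 UMIs before and 3 after, 2.06) and C1QL2 (29 and 4, 0.93) had fewer UMIs and intervals that cover 0. IL1RAP, a receptor subunit that binds PTPRD, was at 734 CPM in oligodendrocyte-like nuclei before and 740 CPM after (103 UMIs). MAGI2, a scaffold protein that binds neuroligins, was at 15524 CPM in oligodendrocyte-like nuclei before and 19065 CPM after, against 3506 CPM in neuron-like nuclei. LSAMP, a relative of NEGR1, was at 3043 and 3319 CPM in oligodendrocyte-like nuclei, where NEGR1 was at 1258 and 747 CPM. CNTN1, a contactin, was at 2646 and 2378 CPM there, and PTPRS, a relative of PTPRD, at 1028 and 927 CPM.

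ADGRL3, a latrophilin with at least 50 UMIs in post-processed glial nuclei, was at 971 and 596 CPM in oligodendrocyte-like nuclei. Low ratios beside those of LRRTM4 and SLITRK3 were those of CNTNAP5 (-5.53), a relative of CNTNAP2, and DLGAP3 (3701 UMIs before and 1 after), a postsynaptic scaffold protein. CNTNAP5 was at 127 CPM in oligodendrocyte-like nuclei before processing and 35.9 CPM after (5 UMIs), while LSAMP and CNTN1 were similar in both libraries there. LRRTM2, at 43.4 and 57.5 CPM in these nuclei, had 13 and 8 UMIs. A link between the level before processing and the ratio was not tested.

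Across the 12 clusters with at least 20 pre-processed nuclei, the log2 levels of the 9 genes varied together to different degrees. Pearson's r over the 36 pairs ran from 0.10 (PTPRD and LRP1B) to 0.94 (CADM2 and ADGRB3), with a median of 0.67. All clusters come from 1 library and share its free RNA, so these values are a description. Among 2929 genes with at least 500 UMIs, those most like TENM2 were EPHA7, BCL11A and KCNJ3 (r 0.98 each), and those most like CNTNAP2 were TMEM150C (0.97), FGF12 (0.95) and LOC132659557 (0.95). Close to NLGN1 were CDK14 (0.96) and NRCAM (0.95), and LRP1B was most like DGKB (0.96), SFXN1 (0.95) and CYFIP2 (0.95).

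ADGRB3 and CADM2 shared MAPK10 and SYBU among their 3 closest genes, joined by TRIM9 for ADGRB3 and LOC121816270 for CADM2, with r from 0.95 to 0.98. NEGR1 was most like AMPH (0.94), TTC7B (0.94) and FUBP3 (0.93). PTPRD was most like ESYT2 (0.95), KCNH3 (0.93) and PIP4K2C (0.92), and NRXN3 most like PCLO, LOC101112774 and LYPD6B (0.93, 0.93 and 0.92).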

How the data were processed

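Single-nucleus RNA of 2 libraries was deposited as matrices of UMI counts per gene and barcode. Per the submitters' processing notes the authors used DRAGEN, with no version; genome build and annotation were not stated in any source used here. The deposited counts are whole numbers, so they had not been logged or scaled to fractions. Earlier steps that leave whole numbers, such as a selection of barcodes, cannot be seen from them.

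The members and lists were chosen with earlier results of these data known. A barcode needed 100 detected genes to count as a nucleus. Nuclei were clustered in R 4.3.3 with Seurat 5.3.0 (Louvain resolution 0.5 on 30 principal components of 2000 variable genes, after scaling each nucleus to 10000 and taking logs). Clusters were named from marker lists when at least 3 markers were raised, by rules written after the clusters were seen. A GJA1/SLC4A4-high label was used where markers were too few. UMIs were summed per library and class and given as CPM, with log2 ratios after adding 0.5 counts. Intervals are exact Poisson, Clopper-Pearson or conditional binomial at 95% (scipy 1.17.1, Python 3.11.15), and genes with at least 10 UMIs in the 2 sums form the background. The ratio and its interval were run on simulated Poisson counts per gene. These share the assumption of the interval and have no variation between nuclei, so they check the calculation only. Named were all 9 genes, the neuronal reference genes, relatives with the 5 highest and 5 lowest ratios or at least 50 UMIs in post-processed glia, and the 3 genes most alike in pattern. Another minimum of genes per barcode, scale, pseudocount, clustering and class definition were tried. No sequence is shown, and with 1 library per condition no test was run. Some relatives that this rule names are not reported here.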

Additional observations from a re-analysis of the deposited data

Results flagged for a closer look

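PTPRD was higher in the post-processed than in the pre-processed library within oligodendrocyte-like nuclei (log2 ratio 0.19) and lower within microglia-like nuclei (-0.41). Both intervals exclude 0 and the directions are opposite, but each class is 1 pair of libraries and the difference was not tested. With classes taken from marker UMIs the values were -0.024 (-0.097 to 0.049) and -1.82, no longer opposite beyond counting error.

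The 411 post-processed barcodes with under 100 detected genes, which entered no comparison, held 205 UMIs of the 9 genes among 28995, or 7070.2 CPM (6135 to 8107), where a count of 3 would be 103 CPM. Of these, 106 were PTPRD and 52 NRXN3, while NLGN1 and TENM2 had 1 each and of the neuronal genes SYT1 had 1 and KCNIP4 4 (138 CPM, beside 60.1 CPM in the nuclei).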

How the results depend on the processing

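All 9 genes stayed at least 2-fold lower over all nuclei under each alternative scale, gene minimum and pseudocount, and the summed log2 ratio of -3.42 became -3.79 on the scale of the median gene ratio, which shifts all genes by 0.37. The neuron-like share of their pre-processed UMIs, 80.3%, was 81.6% when they entered the clustering, 81.0% at resolution 1.0, 81.0% with classes from marker UMIs per nucleus, and 90.7% with clusters 1 and 10 added, an alternative chosen after seeing the data. The post-processed shares depended on class limits. The oligodendrocyte-like share of 41.8% became 79.1% at resolution 1.0 and 71.5% with marker UMIs, and the microglia-like share of 48.5% became 11.2% and 14.4%. At resolution 1.0, 27 of the 179 post-processed microglia-like nuclei, with 83.1% of that class's PTPRD and 71.2% of its NRXN3 UMIs, were named oligodendrocyte-like. The same 27 nuclei held 83.9% of its CADM2, 81.0% of its NLGN1 and 80.0% of its ADGRB3 UMIs. For the rest the share ran from 27.3% (TENM2) to 63.1% (LRP1B). Their median depth was 5041 UMIs, against 1427.5 in the 150 nuclei that stayed microglia-like. Above the neuronal range in oligodendrocyte-like nuclei was 1 gene (PTPRD), 2 when the genes entered the clustering, 0 at resolution 1.0, 0 with marker UMIs and 4 without CAMK2A. In GJA1/SLC4A4-high nuclei the 4 became 8 without CAMK2A. The summed log2 ratio within oligodendrocyte-like nuclei, -0.28, was -0.63 at resolution 1.0 and -1.10 with marker UMIs, where PTPRD reversed to -0.024. Within microglia-like nuclei it was -1.29, and -2.41 at resolution 1.0, -2.78 with marker UMIs and -4.19 in nuclei with no oligodendrocyte marker UMI. The cause was not tested. In the 57 post-processed oligodendrocyte-like nuclei NLGN1, TENM2, LRP1B and ADGRB3 rest on under 20 UMIs each. No paired analysis was possible because each condition has 1 library.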
